A study of Mus musculus with 8 samples.

Results

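Inhibin, activin and gonadal supporting cell genes were examined by bulk RNA sequencing of tumors from 4 models of endometrial cancer (EC) in mice. The 10 genes were Inha, Inhba, Inhbb, Fst, Amh, Fshr, Lhcgr, Foxl2, Wt1 and Sox9, found by gene symbol among the 24419 symbols of the raw counts. They were chosen by their known place in granulosa and Sertoli cells, after high levels of steroid synthesis genes in some of these same libraries were known. Their p-values are therefore given as a description and support nothing. Of the 10 genes, 8 passed the filter on low counts and were tested, while Fshr and Lhcgr did not pass. The filter left 15875 genes in all.

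Granulosa cells of the ovary and Sertoli cells of the testis are the supporting cells of the gonads. They share many genes, with Foxl2 keeping the granulosa state and Sox9 the Sertoli state. Both cell types secrete inhibins, which are dimers of an alpha subunit with a beta subunit and lower the release of follicle-stimulating hormone. Dimers of beta subunits only are activins, which raise it, and follistatin binds and blocks activins. Sox9, Wt1, the beta subunits and follistatin are also made by many cells outside the gonads, including epithelium and mesenchyme of the uterus.

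The models were grown from uterus organoids of female CAG-Cas9-EGFP mice of 8 to 10 weeks, edited by lentiviral sgRNAs and retroviral cDNAs and injected into the left uterus of female BALB/cA-nu mice of 8 weeks. All edited organoids carried an sgRNA against Trp53. TPM tumors overexpressed Myc. To these edits TPMCa (TPMPik3ca in the labels) added a cDNA of Pik3ca E545K, and TPMR1 (TPMPik3r1 in the labels) added an sgRNA against Pik3r1. TPK tumors were made without the Myc construct. The labels describe organoids of tumors, whereas by the study's methods RNA came from tumors collected around 2 months after the organoids were transplanted. Each model had 2 libraries. By the study's figure legends, the tumor tissue of each model came from 2 mice.

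Total counts per library lay between 15748396 and 26943611. Levels are given as CPM, counts scaled to a common library size with TMM factors, and a floor of 3 counts equals between 0.116 and 0.198 CPM. The labelled tumor epithelium was checked first. The sum of 6 simple and gland epithelium genes (Epcam, Cdh1, Krt8, Krt18, Foxa2, Pax8) lay between 1329 and 2600 CPM in TPM and TPK, between 17.98 and 53.3 CPM in TPMCa and between 3.87 and 14.3 CPM in TPMR1. The TPMR1 libraries differed more from each other than the libraries of any other model, with 2701 genes (17%) over 4-fold apart, against 749 genes (4.72%) in TPM, 1293 genes (8.14%) in TPMCa and 972 genes (6.12%) in TPK. Each TPMR1 value below is therefore given by library.

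TPMR1 replicate 2 was the highest library for 7 of the 9 genes with any counts, Inha, Inhba, Inhbb, Amh, Lhcgr, Foxl2 and Wt1. Over all tested genes this library was the highest for 10.1%. The other TPMR1 library, replicate 1, held the highest levels of Cyp11a1 and Star, which carry out the first steps of steroid synthesis. It was below replicate 2 for 9 of the 9 genes with counts, against 48.7% of all tested genes. Fst had an order of the models: it was highest in TPK, lower in TPM, lower again in TPMCa and lowest in TPMR1. The libraries of these models did not overlap for Fst. In bulk libraries, fewer cells of a type and less RNA per cell cannot be told apart.

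**Figure D1:**
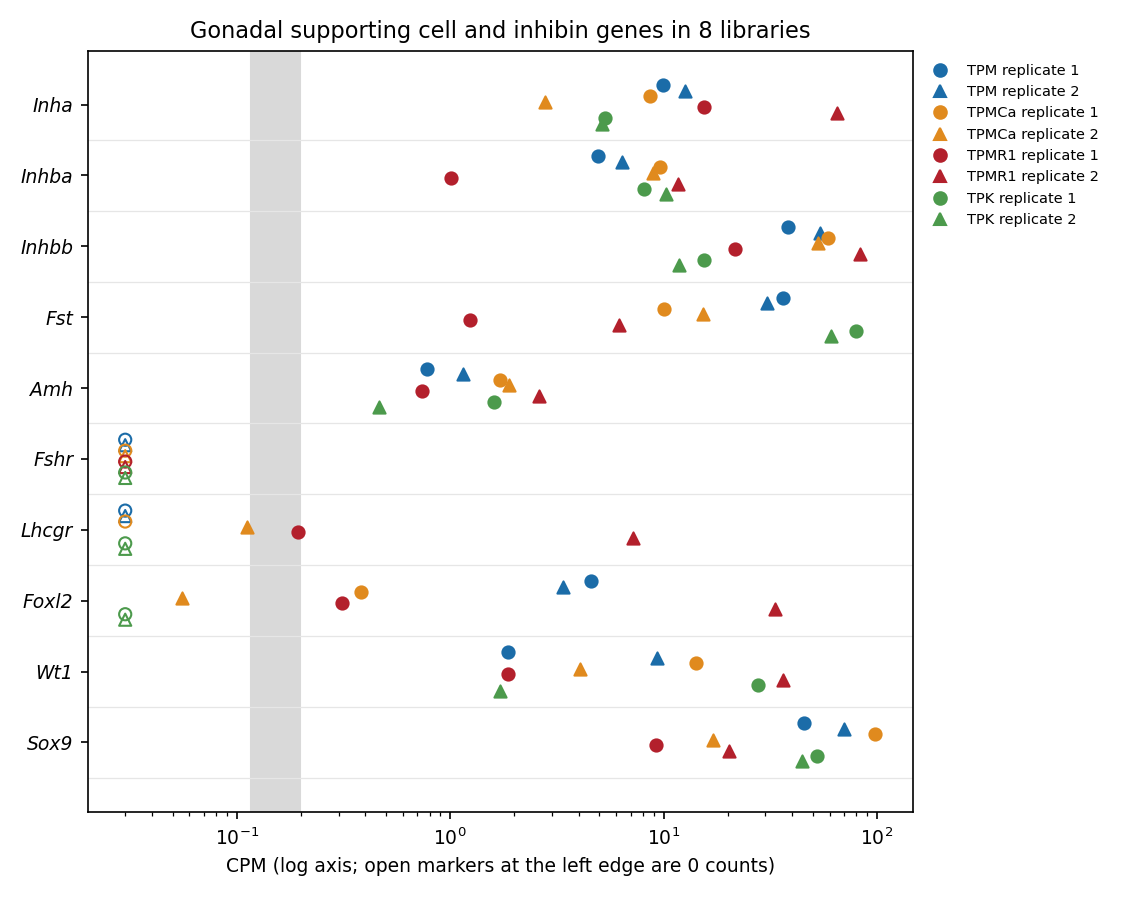
CPM of the 10 genes in each of the 8 libraries on a log axis, with colors for the models, circles for replicate 1 and triangles for replicate 2. Open markers at the left edge are 0 counts and the gray band is the range of the floor of 3 counts, 0.116 to 0.198 CPM. The red triangle of TPMR1 replicate 2 is farthest to the right for 7 genes, and Fst separates the 4 models.

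Inha, on chromosome 1 of GRCm38 from 75507077 to 75510366, encodes the alpha subunit that makes a dimer an inhibin. Its CPM was 9.93 and 12.6 in TPM, 8.68 and 2.78 in TPMCa, 15.5 and 64.8 in TPMR1, and 5.32 and 5.14 in TPK, with replicate 1 given first here and below. Both TPMR1 libraries were above the other 6, and the TPMCa and TPK libraries were all below both TPM libraries. The means were 40.1 ± 34.9 CPM (SD, n = 2) in TPMR1, 11.3 ± 1.87 CPM in TPM, 5.73 ± 4.17 CPM in TPMCa and 5.23 ± 0.122 CPM in TPK. Inha differed between TPMR1 and TPM by a log2 fold change of 1.83 (SE 0.793), which edgeR did not call (adjusted p = 0.228). It was 2.53 without TPMR1 replicate 1 and 0.46 without replicate 2, so its size rested on replicate 2. Against TPMCa the log2 fold change of TPMR1 was 2.81 (SE 0.824, adjusted p = 0.376 from edgeR), which DESeq2 called (adjusted p = 0.0208).

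Inhbb, on chromosome 1 from 119415465 to 119422248, encodes the beta B subunit of inhibin B and activin B. Its CPM was 38.2 and 54.1 in TPM, 59.2 and 52.8 in TPMCa, 21.6 and 83.3 in TPMR1, and 15.4 and 11.9 in TPK. The TPK libraries were the lowest of the 8, and the TPMR1 libraries lay on either side of all TPM and TPMCa libraries. TPK was at 13.6 ± 2.52 CPM (SD, n = 2), against 46.1 ± 11.2 CPM in TPM, 55.98 ± 4.48 CPM in TPMCa and 52.5 ± 43.6 CPM in TPMR1. Against the mean of TPMCa and TPMR1, the log2 fold change of TPK was -1.99 (SE 0.563), just short of the threshold (adjusted p = 0.0618 from edgeR), and it passed with DESeq2 (adjusted p = 0.00285) and without either TPMR1 library (adjusted p = 0.00553 and 0.0248 from edgeR). Against TPM it was -1.76 (SE 0.606, adjusted p = 0.678 from edgeR).

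Inhba, on chromosome 13 from 16011851 to 16031621, encodes the beta A subunit of inhibin A and activin A. Its CPM was 4.94 and 6.41 in TPM, 9.63 and 8.9 in TPMCa, 1.01 and 11.7 in TPMR1, and 8.06 and 10.3 in TPK. The TPMR1 libraries were the lowest and the highest of the 8, 11.6-fold apart, while within each other model the libraries were at most 1.3-fold apart. No comparison of Inhba passed the threshold, and the direction between TPMR1 and TPM turned with the library: the log2 fold change of 0.16 (SE 0.972, adjusted p = 0.948 from edgeR) became 1.04 without replicate 1 and -2.49 without replicate 2.

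Levels of different subunits were compared only per kilobase of exon, as CPM divided by the summed exon length of the gene. Of the summed level of the 3 subunits, Inha made up 40.9 and 38.4% in TPM, 27.6 and 12.0% in TPMCa, 66.6 and 67.2% in TPMR1, and 42.4 and 44.2% in TPK. The TPMR1 libraries thus had a like share of the alpha subunit although its level differed 4.2-fold between them. Per kilobase, Inha was 1.997 and 2.05 times the sum of both beta subunits in TPMR1 and between 0.137 and 0.793 times that sum in the other 6 libraries. The beta subunits also differed in their ratio: Inhbb per kilobase was 32.3 and 10.7 times Inhba in TPMR1, 11.6 and 12.7 times in TPM, 9.23 and 8.91 times in TPMCa, and 2.88 and 1.73 times in TPK. The TPK libraries had the lowest ratios of beta B to beta A, below the other 6. These shares are descriptions of RNA and carry no test.

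**Figure D2:**
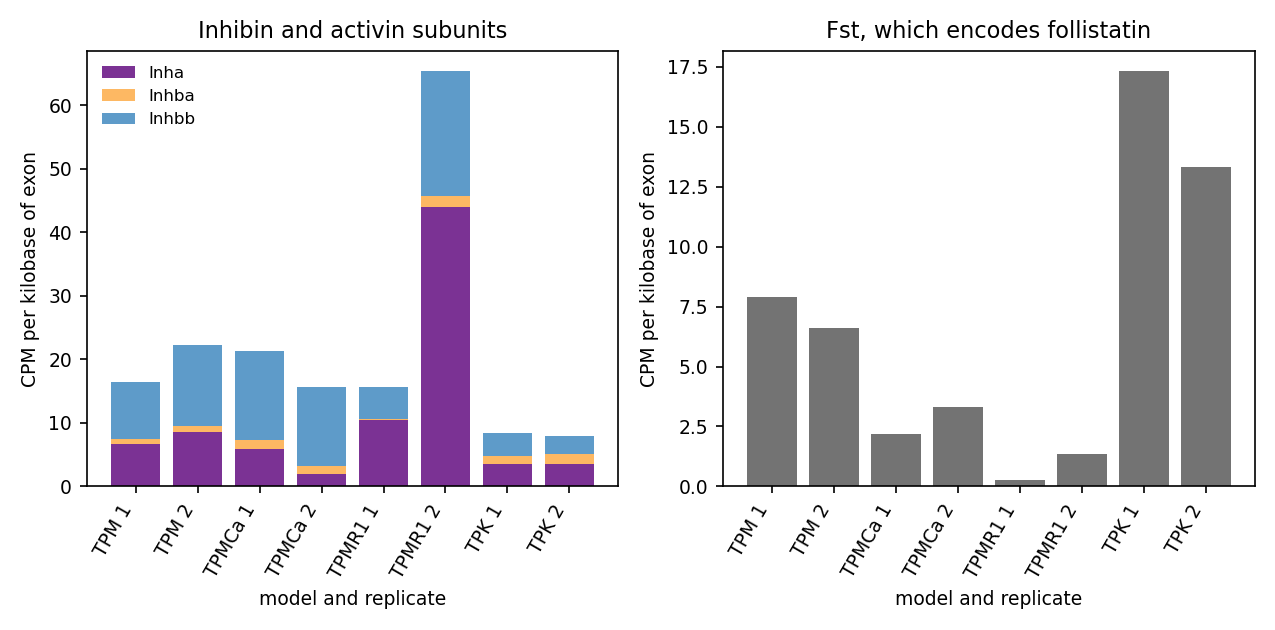
Left, stacked CPM per kilobase of exon of Inha, Inhba and Inhbb in each library; right, the same scale of value for Fst, with its own axis. The stack is highest in TPMR1 replicate 2, where Inha is at 43.9 CPM per kilobase, and Fst is highest in the TPK libraries at 17.3 and 13.3 CPM per kilobase.

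Fst, on chromosome 13 from 114452290 to 114458951, encodes follistatin, which binds activins and keeps them from their receptors. Its CPM was 36.2 and 30.4 in TPM, 10.1 and 15.2 in TPMCa, 1.24 and 6.17 in TPMR1, and 79.4 and 61.0 in TPK. The order of the models, TPK above TPM, TPM above TPMCa and TPMCa above TPMR1, held for every library. Means were 70.2 ± 12.97 CPM (SD, n = 2) in TPK, 33.3 ± 4.11 CPM in TPM, 12.7 ± 3.66 CPM in TPMCa and 3.7 ± 3.49 CPM in TPMR1. Fst was higher in TPK than in the mean of TPMCa and TPMR1, with a log2 fold change of 3.36 (SE 0.565, adjusted p = 0.0129 from edgeR, both TPK libraries above all 4 others), and was the only one of the 8 tested genes that edgeR called in any of the 5 comparisons. Over 13 alternatives this log2 fold change lay between 2.99 and 4.15 and the adjusted p between 2.33e-06 and 0.0728, and the call was lost without TPMCa replicate 1 (adjusted p = 0.0622), TPK replicate 1 (0.0728) or TPK replicate 2 (0.068).

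Between TPMR1 and TPM, Fst had a log2 fold change of -3.18 (SE 0.729), which edgeR did not call (adjusted p = 0.0574). It passed with DESeq2 (adjusted p = 0.000255), without a filter on low counts (adjusted p = 0.0415 from edgeR) and without TPMR1 replicate 1 or 2 (adjusted p = 0.0389 and 0.00595 from edgeR). Neighbors in the order of models were not called: the log2 fold change was 1.08 (SE 0.672, adjusted p = 0.76) for TPK against TPM, -1.39 (SE 0.68, adjusted p = 0.282) for TPMCa against TPM and -1.78 (SE 0.695, adjusted p = 0.412) for TPMR1 against TPMCa, all from edgeR. Per kilobase, Fst was 3.54 and 3.03 times the sum of both beta subunits in TPK, 0.809 and 0.483 times in TPM, 0.142 and 0.241 times in TPMCa, and 0.0515 and 0.0628 times in TPMR1. Between models, the epithelium genes given above were, like Fst, high in TPM and TPK and low in TPMCa and TPMR1. Among the TPM and TPK libraries, their sum was lowest in TPK replicate 1 (1329 CPM), where Fst was highest. Summed squamous genes (Krt5, Krt14, Trp63) were at 11270 and 2935 CPM in TPM and 14110 and 10060 CPM in TPK. They were at 5.83 and 2.95 CPM in TPMCa and 1.24 and 11.5 CPM in TPMR1. The part of epithelial content in the Fst level was not tested. Fst shares 115 exonic bases with the antisense gene Gm47040, which has no row in the counts, and the counting is not stated to use strand.

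Amh, on chromosome 10 from 80805243 to 80807648, encodes anti-Mullerian hormone, a product of Sertoli cells and of granulosa cells of growing follicles. TPM libraries had 13 and 20 counts of Amh, TPMCa libraries 27 and 34, TPMR1 libraries 19 and 47, and TPK libraries 28 and 7. These are between 0.462 and 2.61 CPM, low in every library, and the TPMR1 and TPK libraries overlapped those of the other models. No comparison of Amh passed the threshold. The housekeeping gene Sf3a2, which lies 318 bases away, was at 63.95 CPM or more in every library, and reads of either gene that ran past its end could not be told apart in the counts.

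Fshr and Lhcgr, neighbors on chromosome 17, encode the receptors for follicle-stimulating and luteinizing hormone. Fshr, from 88984952 to 89200675, marks granulosa and Sertoli cells and had 0 counts in all 8 libraries, where 3 counts would be 0.198 CPM or less. Lhcgr, from 88716481 to 88791990, marks theca, Leydig and luteal cells and mature granulosa cells. It had 130 counts in TPMR1 replicate 2, 5 in TPMR1 replicate 1, 2 in TPMCa replicate 2 and 0 in the other 5 libraries. In CPM this was 7.23 (95% exact Poisson interval 6.04 to 8.58, for counting error only) in TPMR1 replicate 2 and 0.194 (0.0629 to 0.452) in replicate 1. The mean of TPMR1 was at least 21.1-fold higher than 3 counts in each TPM library, and it rested on replicate 2. Neither gene was tested.

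Foxl2, on chromosome 9 from 98955288 to 98958543, encodes the forkhead factor that keeps granulosa cells from turning toward Sertoli cells and that is also found in uterine stroma. TPM libraries had 76 and 59 counts of Foxl2, TPMCa libraries 6 and 1, TPMR1 libraries 8 and 596, and TPK libraries 0 and 0. In CPM this was 4.58 and 3.38 in TPM, 0.38 and 0.0557 in TPMCa, 0.31 and 33.1 in TPMR1, and not detectable at this depth in TPK. TPMR1 replicate 2 was 107-fold above replicate 1, which lay with the TPMCa libraries. Summed, 7 uterine stroma genes (Hoxa10, Hoxa11, Hand2, Esr1, Pgr, Pdgfra, Nr2f2) were at 338.4 and 260.1 CPM in TPMR1. Elsewhere they were between 171.2 and 504.3 CPM. Of the 7 genes, 3 were higher in TPMR1 replicate 2 than in replicate 1. The part of stroma in the levels of Foxl2 and Wt1 was not tested. Foxl2 was at least 21.5-fold lower in TPK than in TPM against the floor of 3 counts a library, a difference that edgeR did not call (adjusted p = 0.678) and DESeq2 did (adjusted p = 0.0198). Between TPMR1 and TPM the log2 fold change was 2.07 (SE 1.78, adjusted p = 0.548 from edgeR), 3.06 without replicate 1 and -3.65 without replicate 2. Between TPMCa and TPM it was -4.17 (SE 2.06, adjusted p = 0.297 from edgeR), with no overlap between the libraries.

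Foxl2 shares 12 exonic bases with the antisense transcript Foxl2os, and the counting is not stated to use strand. Foxl2os had 109 and 72 counts in TPM, 1 and 6 in TPMCa, 3 and 559 in TPMR1, and 0 and 0 in TPK. Both genes were thus high in the same 3 libraries and at 0 in the same 2. In the 12 shared bases, of 3256 exonic bases of Foxl2, reads of the strands cannot be told apart.

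Wt1, on chromosome 2 from 105126529 to 105173616, encodes a zinc finger factor of the early gonad, Sertoli and granulosa cells, mesothelium and uterine stroma. Its CPM was 1.87 and 9.32 in TPM, 14.2 and 4.06 in TPMCa, 1.86 and 36.1 in TPMR1, and 27.6 and 1.71 in TPK. The libraries of every model were at least 3.49-fold apart, 19.4-fold in TPMR1 and 16.1-fold in TPK, so no order of the models can be read for this gene. Summed, the mesothelium genes were at 66.8 CPM in TPK replicate 1 and 49.7 CPM in replicate 2. Of these 5 genes, 4 were higher in TPK replicate 1, while Msln was at 18.2 CPM there and 41.9 CPM in replicate 2. The mesothelium sum also went with Wt1 in TPM, at 31.9 and 67.3 CPM, and in TPMCa, at 62.4 and 6.62 CPM. In TPMR1, where Wt1 differed most, the sum went the other way, at 74.2 and 44.1 CPM, and 2 of the 5 genes were higher in replicate 2. The part of such cells in the Wt1 level was not tested.

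Sox9, on chromosome 11 from 112782224 to 112787760, encodes the factor that sets Sertoli cell fate and is also made in gland epithelium and cartilage. Its CPM was 45.7 and 70.4 in TPM, 97.97 and 16.97 in TPMCa, 9.18 and 20.3 in TPMR1, and 52.4 and 44.3 in TPK. TPMR1 replicate 1 was the lowest library, and TPMCa replicate 1 the highest. Both TPMR1 libraries were below both TPM libraries for Sox9, as they were for Fst. The log2 fold change of Sox9 between TPMR1 and TPM was -1.98 (SE 0.804, adjusted p = 0.203 from edgeR). In TPMCa replicate 1, cartilage genes were also high, with Col2a1 at 196.8 CPM and Col9a1 at 24.1 CPM against 0.89 and 0 CPM in replicate 2, where Sox9 was 5.77-fold lower. Their part in the Sox9 level was not tested. In TPMR1 replicate 1 the cartilage gene Acan was at 837 CPM, while Col2a1 was at 0.155 CPM and Sox9 was at its lowest.

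In the whole table, edgeR called 553 of 15875 genes (3.48%) between TPMCa and TPM, 886 (5.58%) between TPMR1 and TPM, 0 (0%) between TPMR1 and TPMCa, 0 (0%) between TPK and TPM, and 2287 (14.4%) between TPK and the mean of TPMCa and TPMR1. Of the 8 tested genes, 0, 0, 0, 0 and 1 were called in that order. An unadjusted p under 0.05 was reached by 0, 2 (Sox9 and Fst), 4 (Foxl2, Sox9, Inha and Fst), 2 (Foxl2 and Inhbb) and 3 (Foxl2, Inhbb and Fst) of them, against 3506, 3671, 1867, 1138 and 5077 of all genes. DESeq2 called 0, 1 (Fst), 2 (Foxl2 and Inha), 1 (Foxl2) and 3 (Foxl2, Inhbb and Fst), and 2547, 2867, 772, 240 and 4516 of all genes. The median log2 fold change of the 8 genes was 0.13 between TPMCa and TPM, against -0.01 over all genes. It was 0.49 between TPMR1 and TPM (0.03 over all genes), -0.1 between TPMR1 and TPMCa (0.01), -0.08 between TPK and TPM (0.01) and -0.29 between TPK and the mean of TPMCa and TPMR1 (-0.002). The signs were mixed in every comparison, with between 3 and 6 of the 8 genes positive. With 2 libraries in each model, exact permutation of the labels cannot bring any gene past the threshold and was not run.

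**Figure D3:**
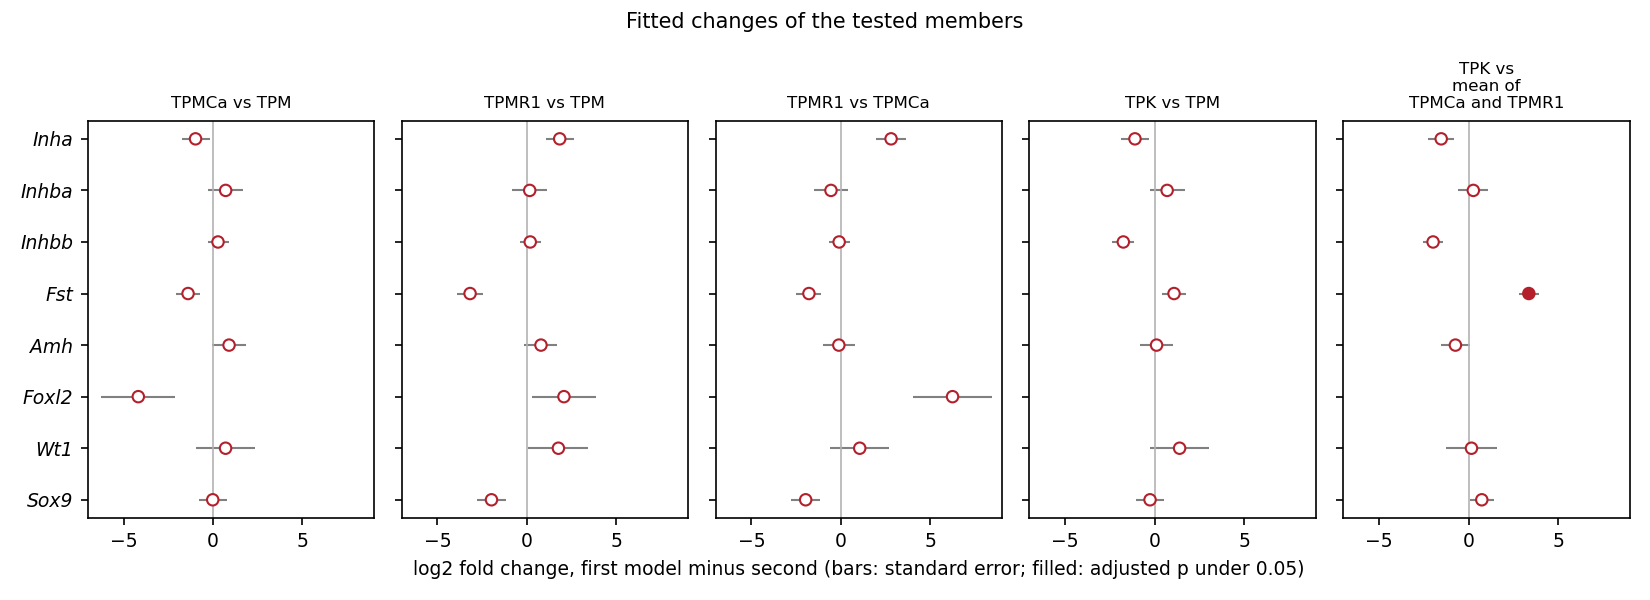
Log2 fold changes of the 8 tested genes in 5 comparisons, as the first model minus the second, with bars for the standard error from the edgeR fit. Only Fst in TPK against the mean of TPMCa and TPMR1 is filled, at 3.36 with an adjusted p of 0.0129 from edgeR. Foxl2 has no point in the TPK panels because both TPK libraries had 0 counts.

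The TPMR1 libraries were then compared with each other for genes that go with these 10 in gonads. Of the 8 tested genes, 5 were over 4-fold apart between the TPMR1 libraries (62.5%), against 17% of all genes. Replicate 2 was 107-fold above replicate 1 for Foxl2, 37.3-fold for Lhcgr, 19.4-fold for Wt1, 11.6-fold for Inhba and 4.98-fold for Fst. It was 4.2-fold above for Inha, 3.85-fold for Inhbb, 3.55-fold for Amh and 2.21-fold for Sox9. Replicate 2 was above replicate 1 in 48.7% of all tested genes.

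The steroid synthesis genes had the opposite order between these libraries. Cyp11a1, the side chain cleavage enzyme, was at 3768 CPM in TPMR1 replicate 1 and 181.6 CPM in replicate 2. Star, which brings cholesterol into mitochondria, was at 467.8 and 18.5 CPM, and Nr5a1, the factor that drives steroid genes in gonads and adrenal cortex, was at 752.9 and 148.2 CPM. Of the 10 steroid synthesis genes, Hsd3b1, at 35.0 and 91.1 CPM, was the one higher in replicate 2, and Cyp19a1, the aromatase of granulosa cells, had 0 counts in both. In the other 6 libraries, Nr5a1 was at 5.23 CPM or less and Cyp11a1 at 8.46 CPM or less, while Inha was at 2.78 to 12.6 CPM. TPMR1 replicate 1, with the highest levels of Cyp11a1, Star and Nr5a1, had Inha at 15.5 CPM, above the 6 libraries outside TPMR1. The TPM library with Inha at 12.6 CPM had Nr5a1 at 0.4 CPM. In TPMR1 replicate 1, Foxl2, Lhcgr and Wt1 were at 1.86 CPM or less, while Gata4 was at 137.2 CPM and Ptgds at 122.6 CPM. The origin of the steroid gene levels was not tested.

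**Figure D4:**
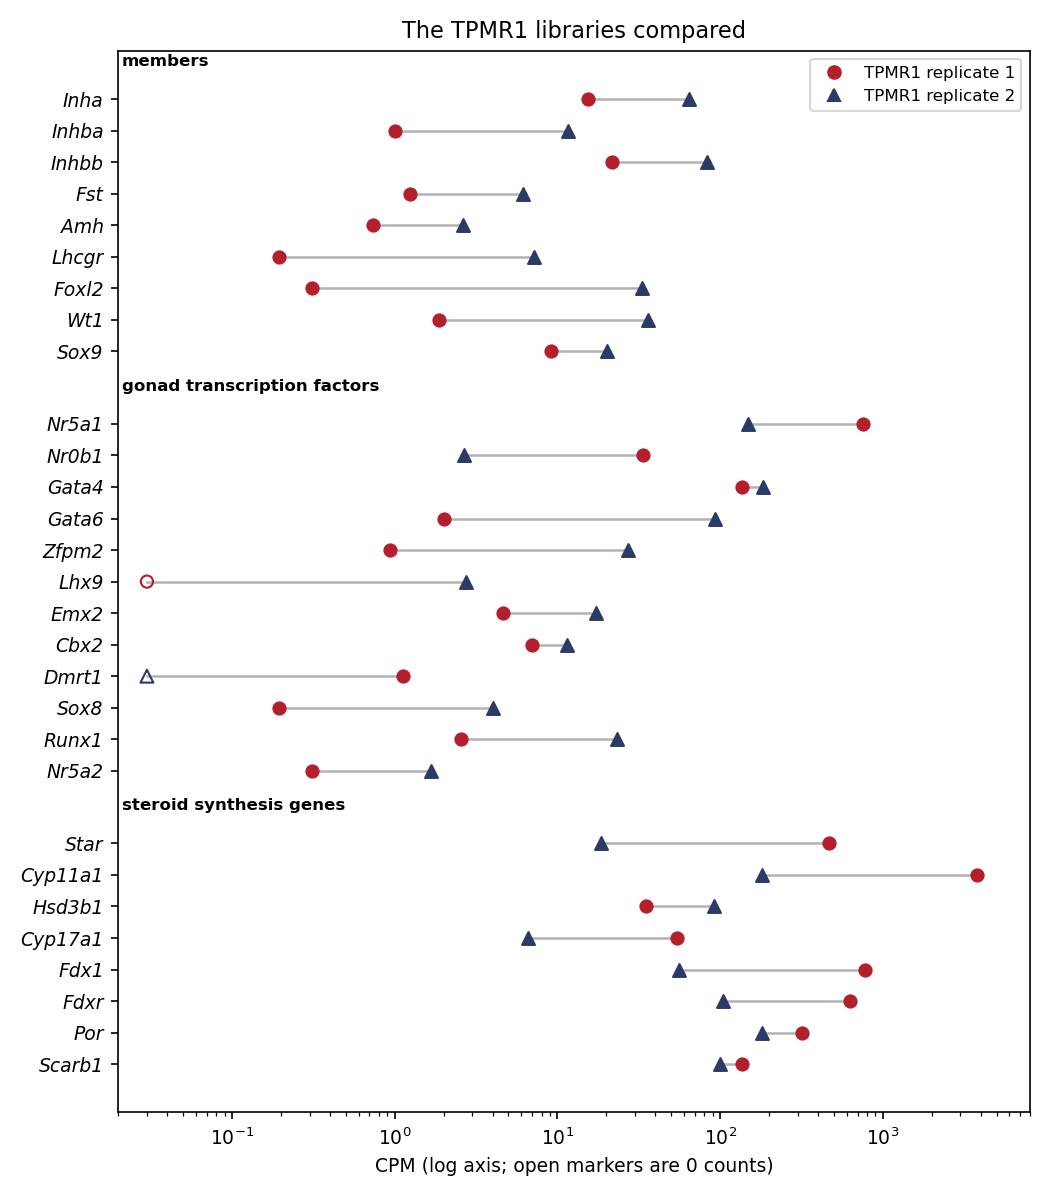
CPM on a log axis in TPMR1 replicate 1 (circles) and replicate 2 (triangles) for the 9 members with counts, 12 gonad transcription factors and 8 steroid synthesis genes, joined by a gray line for each gene. Open markers are 0 counts. The triangle is to the right for all 9 members, and the circle is to the right for 7 of the 8 steroid synthesis genes, Hsd3b1 being the exception.

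Of 12 gonad transcription factors, 9 (75%) were higher in TPMR1 replicate 2, against 48.7% of all tested genes. Gata6 was at 2.01 and 92.9 CPM and its cofactor Zfpm2 at 0.929 and 27.3 CPM, whereas Gata4, which acts in supporting and steroid cells alike, was at 137.2 and 183.3 CPM. Nr0b1, a partner of Nr5a1, went the other way at 33.7 and 2.67 CPM. In TPMR1 against TPM, 2 of the 10 tested factors were called, both higher: Nr5a1, with a log2 fold change of 10.56 (SE 1.69, adjusted p = 0.0234 from edgeR), and Gata4, at least 909.8-fold higher than 3 counts in each TPM library (adjusted p = 0.00356 from edgeR). In TPMCa against TPM, Gata4 was the one factor called, at least 47.2-fold higher (adjusted p = 0.00889 from edgeR). Against the mean of TPMCa and TPMR1, Nr5a1 and Gata4 were lower in TPK and Runx1, a granulosa and epithelial factor, was higher, with a log2 fold change of 3.27 (SE 0.739, adjusted p = 0.0327 from edgeR). Emx2 and Cbx2, factors of the early gonad and uterus, were above 10 CPM in both TPM libraries and were not called.

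Of 10 other granulosa cell genes, 9 were tested and 0 were called by edgeR in any of the 5 comparisons, and Cyp19a1 had 2 counts or fewer in every library. Their summed level was 170.9 CPM in TPMR1 replicate 1, 348.8 CPM in replicate 2 and between 104.5 and 218.8 CPM elsewhere. Of these 10 granulosa cell genes, 8 (80%) were higher in TPMR1 replicate 2 than in replicate 1, against 48.7% of all tested genes. TPMR1 replicate 2 was the highest library for 6 (60%), against 10.1% of all tested genes. Wnt4, Kitl and Serpine2 made up most of the summed level, and none of these is particular to granulosa cells. In TPMR1, Wnt4 was at 1.24 and 52.3 CPM and Serpine2 at 7.7 and 120.7 CPM. Kitl, the ligand of Kit, was at 153.3 and 106.7 CPM in TPMR1 and at 41.6 CPM or less elsewhere (log2 fold change between TPMR1 and TPM 3.89, SE 0.853, adjusted p = 0.0509 from edgeR). Chosen after its values were seen, Hsd17b1, which reduces estrone in granulosa cells, was at 18.2 CPM in TPMR1 replicate 2 and 1.08 CPM or less in the other 7 libraries.

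Of 11 other Sertoli cell genes, 7 were tested. Ptgds, which makes prostaglandin D2, was higher in TPMR1 than in TPM, with a log2 fold change of 8.81 (SE 1.5, adjusted p = 0.0271 from edgeR), and was the one gene called there. It was at 122.6 CPM in TPMR1 replicate 1 and 16.3 CPM in replicate 2. The Sertoli factor Dmrt1 had 29 counts in replicate 1, 0 in replicate 2 and 1 or fewer elsewhere. Summed, the Sertoli cell genes were at 128.2 and 53.5 CPM in TPMR1 and between 2.57 and 20.4 CPM elsewhere, but Ptgds made up most of the sum in replicate 1. Without Ptgds, a sum made after the values were seen, the other 10 summed to 5.54 CPM in replicate 1 and 37.2 CPM in replicate 2, against 2.5 to 20.3 CPM elsewhere. Of all 11 genes, 7 (63.6%) were higher in replicate 2, against 48.7% of all tested genes. Among the 7 were Aard at 0.194 and 21.3 CPM and Rhox5 at 0.0774 and 5.84 CPM. Sox8, which is also among the gonad transcription factors, was at 0.194 and 4 CPM. Cldn11 was nearly level at 1.32 and 1.39 CPM. Ptgds, Dmrt1, Rhox8 (42 and 10 counts) and Cst9 (4 and 1 counts) were higher in replicate 1.

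Markers of other cells were read beside these levels. Summed adrenal cortex genes were at 2611 CPM in TPMR1 replicate 1, 6.003 CPM in replicate 2 and between 1.87 and 10.02 CPM elsewhere. Cyp21a1, the adrenal 21-hydroxylase, made up most of this, at 2274 and 0 CPM in TPMR1. Of the rest of the list, Mrap was at 286.1 and 2.61 CPM there, Nr0b1 at 33.7 and 2.67 CPM and Akr1b7 at 15.9 and 0.723 CPM. Cyp11b1 and Cyp11b2 were at 0.774 CPM or less in every library, and Mc2r at 0.835 CPM or less. Cyp11b1 was highest in TPMR1 replicate 1, with 20 counts. Theca and Leydig cell genes summed to 4445 and 267.8 CPM in TPMR1 and luteal cell genes to 4505 and 321.5 CPM, sums that share Star and Cyp11a1 with the steroid list. Theca and Leydig cell genes outside the steroid list were also read. In TPMR1, Hsd3b6 was at 52.7 and 0.111 CPM, Insl3 at 33.9 and 1.22 CPM and Hsd17b3 at 4.96 and 0 CPM. Nr2f2 was nearly level there at 62.9 and 59.8 CPM. Outside TPMR1, Hsd3b6 was at 0.111 CPM or less, Insl3 at 4.92 CPM or less and Hsd17b3 at 0 CPM. Of 11 oocyte genes, 6 (Zp3, Figla, Nobox, Oosp1, Zar1 and Nlrp5) had 3 counts or fewer in every library. Ddx4, which marks germ cells, was at 11.7 CPM in TPMR1 replicate 1 and 1.2 CPM or less elsewhere. Host ovary or adrenal tissue and tumor cells cannot be told apart in these counts.

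Smooth muscle, immune and vessel genes also moved with the members in TPMR1. Smooth muscle genes summed to 21.1 CPM in replicate 1 and 498.7 CPM in replicate 2, and immune and vessel genes to 222.4 and 891.7 CPM, with 4 of 4 genes of each list higher in replicate 2. Other libraries also had high sums. TPM replicate 2 had 574.8 CPM of smooth muscle genes. TPMCa replicate 2 had 3113 CPM of immune and vessel genes, most of it from Lyz2 at 2570 CPM. Of the single genes, TPMR1 replicate 2 was the highest library for 1 of 4 smooth muscle genes, Acta2 at 379 CPM. It was also the highest for 2 of 4 immune and vessel genes, Pecam1 at 198.7 CPM and Cdh5 at 255 CPM. The part of these cells in the levels of the members was not tested. Chosen after its values were seen, Cga, the alpha subunit that pituitary gonadotropins share, was at 5.5 CPM in TPMR1 replicate 2 with 0 counts in the other 7 libraries, and Fshb had 0 counts in all 8.

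**Figure D5:**
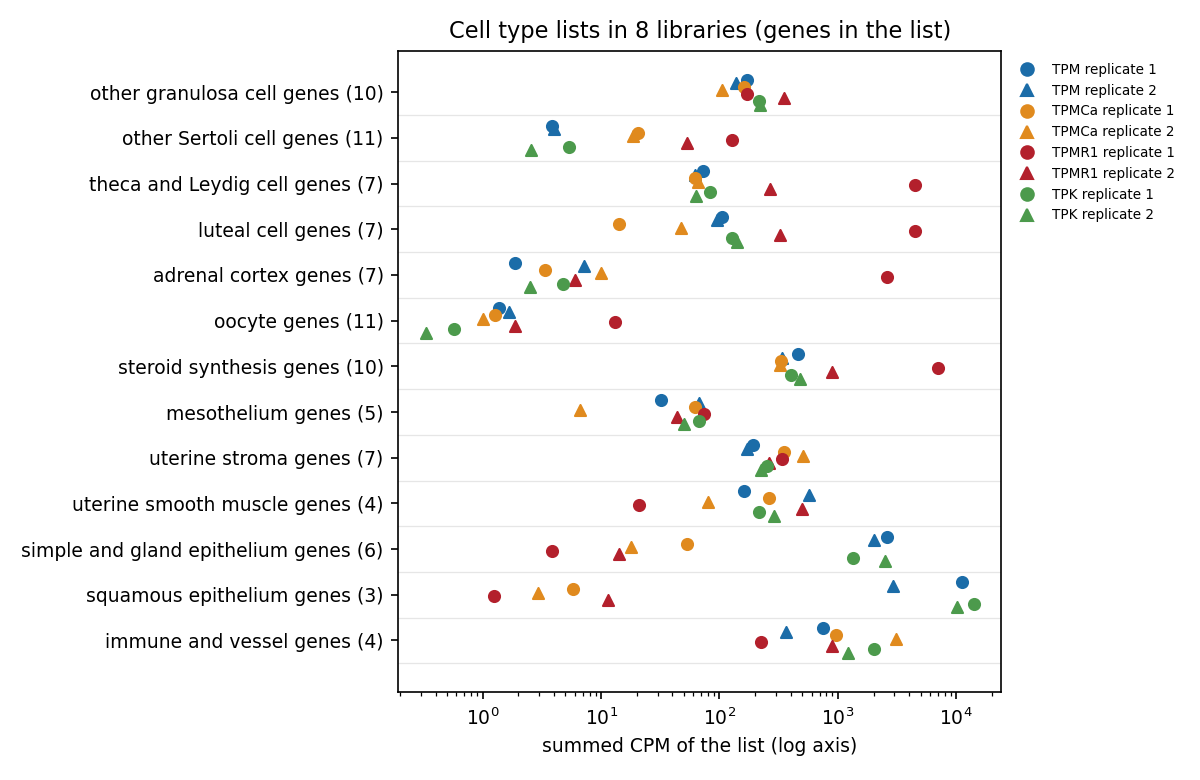
Summed CPM of 13 cell type lists in each library on a log axis, with the number of genes of each list in parentheses, colors for the models, circles for replicate 1 and triangles for replicate 2. TPMR1 replicate 1 stands to the right for adrenal cortex (2611 CPM), steroid synthesis, theca and Leydig and luteal genes, and TPMR1 replicate 2 for the other granulosa cell genes (348.8 CPM).

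Receptors and other parts of the activin and inhibin pathway were followed with a list of 15 genes, of which 13 were tested. Between TPMR1 and TPM, 1 was called: Acvr1b, the type I activin receptor, fell by 2.75 on the log2 scale (SE 0.471, adjusted p = 0.0272 from edgeR). Its CPM was 92.8 and 80.3 in TPM, 29.1 and 16.1 in TPMCa, 8.21 and 17.6 in TPMR1, and 55.8 and 64.5 in TPK. Acvr1b was also the one gene of the list called between TPK and the mean of TPMCa and TPMR1, with a log2 fold change of 1.82 (SE 0.368, adjusted p = 0.0228 from edgeR). Like Fst, it was higher in both TPM and both TPK libraries than in all 4 TPMCa and TPMR1 libraries. By edgeR, 0 of the 13 were called in the other 3 comparisons.

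Tgfbr3 encodes betaglycan, with which inhibins bind activin receptors. Its CPM was 23.7 and 41.9 in TPM, 74.7 and 72.7 in TPMCa, 497.8 and 82.8 in TPMR1, and 31.9 and 4.88 in TPK. Fstl3, which encodes an activin-binding relative of follistatin, was at 150.4 and 13.4 CPM in TPMR1 and at 16.5 CPM or less elsewhere. Both were highest in TPMR1 replicate 1, in contrast to the members, and neither was called between TPMR1 and TPM (adjusted p = 0.146 and 0.0948 from edgeR). The type II receptor Acvr2a was at 20.1 to 35.3 CPM in all libraries, and the transducers Smad2, Smad3 and Smad4 were at 41.0 CPM or more in each. The beta subunit genes Inhbc and Inhbe had 2 counts or fewer in every library.

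Amhr2, the receptor of anti-Mullerian hormone, was at 2.47 and 7.78 CPM in TPM, 16.2 and 10.02 CPM in TPMCa, 5.58 and 20.3 CPM in TPMR1, and 4.92 and 1.38 CPM in TPK. It was highest in TPMR1 replicate 2, as were Amh and Foxl2, and it was not called in any comparison. Of 6 genes for anti-Mullerian hormone receptors and gonadotropin subunits, 4 were tested and 0 were called by edgeR in the 5 comparisons.

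Genes with the most similar patterns were sought for Foxl2, Fst and Inha, the 3 tested members with the widest range of log2 CPM over the libraries, 8.23, 5.88 and 4.49. Among genes with a mean log2 CPM of at least 3, Foxl2 was most like Ndufaf5, Styx and Pcsk6, with Pearson correlations of 0.951, 0.945 and 0.903 and Spearman correlations of 0.952, 0.976 and 0.81. Fst was most like Tifa, Tmem154 and Ptpn18, with Pearson correlations of 0.986, 0.984 and 0.982 and Spearman correlations of 0.952, 0.952 and 1. Inha was most like Mphosph10, Ndufaf5 and Pcsk6, with Pearson correlations of 0.945, 0.906 and 0.897 and Spearman correlations of 0.976, 0.786 and 0.881. The 8 libraries come in pairs of a model, and for Foxl2 and Inha the likeness leans on TPMR1 replicate 2, where Pcsk6 was at 100.8 CPM against 35.5 CPM or less elsewhere. Ndufaf5, by contrast, was only between 10.8 and 15.3 CPM in all libraries, so a high correlation does not mean a like size of difference. With 8 points and 10419 genes or more searched, these are descriptions.

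RefSeq promoter windows of GRCm38.p6, from 250 bases before to 50 after the RefSeq start, were found for 6 members (Inha, Inhba, Inhbb, Fshr, Lhcgr and Foxl2). The RefSeq start differed from the GENCODE start printed above for Inha and Foxl2. The windows of Inha (75507359 to 75507658) and Foxl2 (98955357 to 98955656) lay inside the genes as printed. For these genes the bases before the printed start were not searched. Searched on both strands, none of the 6 windows held AAGGTCA, a site of steroidogenic factor, which stood in 4.72% of 32851 windows. The longer form TCAAGGTCA, which contains it, stood in 0.423% and in none of the 6. The site AGATAA of the Gata factors stood in 11.2% and the cAMP response element TGACGTCA in 1.79%, and neither was in the 6 windows. No match says only that these letters are not in these windows.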

How the data were processed

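Reads, trimmed by the company that sequenced them, were aligned with STAR to mm10 by the authors, who then counted them per gene. The counter and its annotation are not given in the sources used here. The deposited counts are whole numbers per gene symbol. A deposited table of DESeq2-normalized values was not used. Libraries were grouped by their labels, and TPM columns carry a longer name. CPM used TMM factors of edgeR 4.0.16, log2 CPM a prior count of 2. Genes were filtered by filterByExpr, and all 8 libraries entered 1 quasi-likelihood fit with model as term (common dispersion 0.269, Benjamini-Hochberg adjustment over 15875 genes, threshold 0.05). A standard error is the log2 fold change divided by the square root of F. TMM factors assume that most genes do not differ. Intervals and floors cover counting error only. DESeq2 1.42.0, other scalings and filters, a replicate term, fits of the models compared and leaving out each library were alternatives, in R 4.3.3. The scripts were tested on simulated data. Positions and exon lengths are from GENCODE M21 (GRCm38). All 10 members were named. Of the other lists, genes were named that were called or above 10 CPM in every library of a model, at most 6 a list, and genes at 3 counts or fewer everywhere, and any other gene was chosen for its values. Members and lists were chosen with earlier results of these data known. Some engineered genes are not reported here.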

Additional observations from a re-analysis of the deposited data

How the results depend on the processing

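The count of tested members called by edgeR moved with the test: DESeq2 gave 0 between TPMCa and TPM, 1 between TPMR1 and TPM, 2 between TPMR1 and TPMCa, 1 between TPK and TPM and 3 between TPK and the mean of TPMCa and TPMR1. Without a filter on low counts 1 (Fst) was called between TPMR1 and TPM, where 1051 of 20310 genes were called. Leaving out 1 library changed which members were called in TPMR1 against TPM, TPMR1 against TPMCa and TPK against the mean. The number called over all genes also changed in these fits, each of which left 1 model with 1 library. Over all genes, the 553 called between TPMCa and TPM became 2547 with DESeq2 and 1264 in a fit of these models only, and the 886 between TPMR1 and TPM became 2867 and 53. The replicate numbers did not pair the libraries (correlations of the replicate differences between models from -0.0687 to -0.00819), and a replicate block left 0, 0, 0, 0 and 1 members called, with 362, 557, 0, 0 and 1661 of all genes. It turned Inhba between TPMR1 and TPM from 0.16 to -0.20. Library size alone shifted the median log2 fold change of all genes to -0.11 (TPK against TPM) and -0.12 (TPK against the mean), and turned Amh in the first to -0.051 and Wt1 in the second to -0.012. Sox9 between TPMCa and TPM turned from -0.01 to 0.0086 with DESeq2 and 0.0083 with its size factors. Leaving out 1 library turned the direction of these log2 fold changes, none of which edgeR called on all libraries, with these ranges: between TPMCa and TPM, Sox9 from -1.75 to 0.76 and Wt1 from -0.43 to 2.28; between TPMR1 and TPM, Foxl2 from -3.65 to 3.06, Wt1 from -1.59 to 3.34, Amh from -0.39 to 1.43, Inhba from -2.49 to 1.04 and Inhbb from -1.09 to 0.86. Between TPMR1 and TPMCa the ranges were -2.29 to 2.20 for Wt1, -1.28 to 0.54 for Amh, -3.19 to 0.34 for Inhba and -1.37 to 0.58 for Inhbb. For TPK they were -0.55 to 0.083 for Sox9, -1.69 to 2.97 for Wt1 and -1.05 to 0.73 for Amh against TPM, and -2.95 to 1.83 for Wt1 and -0.18 to 1.58 for Inhba against the mean. In all, 27 values for single members turned, 409 kept direction and side of the threshold, 15 gained and 3 lost the call. The cause of these changes was not tested. Where a library was left out, the lone library was taken to vary like the other models.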
